A study of Saccharomyces cerevisiae S288C with 8 samples.

Results

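The 352 nuclear replication origins (ARS, autonomously replicating sequences) annotated in build R64 of the S. cerevisiae genome were examined in 4 lists of Cse4 ChIP-seq peaks, which hold 3243 peaks in all. An origin was called hit when a peak shared at least 1 bp with it, and the presence of a peak summit (the position of highest signal) within 1 kb was recorded beside this. Of the 352 origins, 85 were hit in at least 1 list and 13 in more than 1 list. The share of the genome that was hit is given below for each list, and not for these counts. Cse4 is the centromeric histone H3 variant of yeast, and the study asked where it lies in wild type cells and in cells with cdc7-7, an allele of the kinase gene CDC7. The endogenous Cse4 strains, wild type and cdc7-7, expressed Cse4 from its own promoter and were grown in glucose. The wild type and cdc7-7 strains with GAL-CSE4-FLAG, in which galactose induces Cse4 overexpression, were grown in raffinose/galactose medium. Medium and expression level therefore cannot be told apart when an endogenous strain is set beside a GAL-CSE4-FLAG strain. The labels give 1.75 hr of growth and the same formaldehyde treatment for all 8 libraries, those of the strains grown in glucose included. All 4 precipitations used anti-FLAG gel. The labels give CSE4-HA as the genotype of both endogenous strains, whereas the paper calls the tag Flag, and the tag could not be settled from the lists. Each strain gave 1 ChIP library and 1 input library, so the 8 libraries gave 4 lists without replicates. No comparison between strains therefore has a replicate check or a p-value, and the intervals given for shares are 95% Wilson intervals, which cover counting error only.

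Replication of yeast chromosomes starts at origins. The origin recognition complex (ORC) binds the T-rich ARS consensus sequence, loads the MCM helicase with Cdc6 and Tah11 (Cdt1), and the Cdc7-Dbf4 kinase (DDK) then phosphorylates MCM to start replication. Origins mostly lie between genes, in stretches poor in nucleosomes, and those near centromeres replicate early in S phase. Promoters are nucleosome-poor as well, so an origin and a gene start often share 1 stretch between genes.

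Sequences of 8 of the 13 origins hit in more than 1 list are shown, since these carry the overlap between the lists. They are read from the + strand of RefSeq R64, 5′ to 3′. The first 3 were hit in all 4 lists and lie beside centromeres. They are ARS208 (chrII:237787-237900), the first 200 bases of ARS308 (chrIII:114321-114520) and the first 160 bases of ARS1208 (chrXII:150947-151106). Capitals in ARS308 mark CEN3, the centromere that lies within this origin, and capitals in ARS1208 mark an exact match to the ARS consensus sequence. ARS208 holds no exact match.
ARS208: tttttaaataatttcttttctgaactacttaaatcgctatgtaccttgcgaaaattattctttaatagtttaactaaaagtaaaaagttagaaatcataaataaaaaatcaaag
ARS308: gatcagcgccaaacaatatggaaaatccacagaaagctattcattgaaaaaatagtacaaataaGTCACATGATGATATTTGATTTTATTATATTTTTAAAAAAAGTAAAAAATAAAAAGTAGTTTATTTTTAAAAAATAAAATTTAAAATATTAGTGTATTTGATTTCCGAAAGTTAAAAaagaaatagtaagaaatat
ARS1208: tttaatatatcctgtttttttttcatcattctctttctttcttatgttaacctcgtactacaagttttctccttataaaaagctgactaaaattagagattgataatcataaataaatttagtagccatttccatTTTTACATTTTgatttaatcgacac
The next 5 were hit by peaks that overlap no centromere and are ordered by chromosome. They are ARS209 (chrII:254998-255083), ARS404 (chrIV:46185-46237), ARS1 (chrIV:462567-462622), ARS722 (chrVII:574622-574915) and ARS1407 (chrXIV:89531-89804). Capitals again mark an exact match to the 11 bp ARS consensus sequence on either strand, which ARS404 and ARS1407 do not hold.
ARS209: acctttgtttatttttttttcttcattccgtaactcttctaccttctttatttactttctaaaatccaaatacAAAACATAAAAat
ARS404: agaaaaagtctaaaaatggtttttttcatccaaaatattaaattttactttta
ARS1: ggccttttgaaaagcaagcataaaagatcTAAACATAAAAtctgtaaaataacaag
ARS722: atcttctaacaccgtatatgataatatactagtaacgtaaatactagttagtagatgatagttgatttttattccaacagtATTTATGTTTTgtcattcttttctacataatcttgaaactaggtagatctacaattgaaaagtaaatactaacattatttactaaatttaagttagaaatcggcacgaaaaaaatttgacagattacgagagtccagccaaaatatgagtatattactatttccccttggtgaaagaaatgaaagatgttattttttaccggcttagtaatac
ARS1407: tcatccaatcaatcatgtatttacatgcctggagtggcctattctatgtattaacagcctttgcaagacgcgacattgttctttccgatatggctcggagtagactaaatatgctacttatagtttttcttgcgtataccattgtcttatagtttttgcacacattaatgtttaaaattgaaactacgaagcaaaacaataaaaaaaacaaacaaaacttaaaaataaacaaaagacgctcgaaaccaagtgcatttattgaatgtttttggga
Over all origins, 124 of 352 (35.2%) held an exact match on either strand, beside 1.49% of windows of 241 bp, the median origin length, laid end to end over the genome, and 3.19% of such windows between genes. The match describes the letters and does not show that ORC bound there.

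The lists differed in length and depth. They held 811 peaks for wild type endogenous Cse4, 183 for cdc7-7 endogenous Cse4, 46 for wild type GAL-CSE4-FLAG and 2203 for cdc7-7 GAL-CSE4-FLAG, and covered 3.73%, 0.931%, 0.230% and 10.4% of the nuclear genome. Peaks that overlap a centromere (CEN peaks), where Cse4 belongs, were present at 16, 16, 16 and 15 of the 16 centromeres. The median background under the summits, solved from the authors' fold enrichment and p-value, was 195, 71.7, 38.1 and 142 fragments in the same order. Fewer fragments allow fewer weak peaks to be called, so hit counts are set beside the share of genome windows hit in the same list.

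In cells with endogenous Cse4, few origins were hit, at shares close to those of the genome windows. In the wild type strain 18 origins (5.11%, interval 3.26 to 7.94) were hit, beside 5.36% of the 50080 genome windows. In the cdc7-7 strain 6 origins (1.70%, interval 0.783 to 3.67) were hit, beside 1.31% of windows. A summit lay within 1 kb of 50 origins (14.2%, windows 13.7%) in the wild type strain and of 14 origins (3.98%, windows 3.31%) in the cdc7-7 strain. In all 4 of these comparisons the interval of the origins includes the share of the windows.

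In wild type cells with GAL-CSE4-FLAG, 3 origins (0.852%, interval 0.290 to 2.48) were hit, beside 0.315% of windows, and all 3 were hit by a CEN peak. A summit lay within 1 kb of 5 origins (1.42%, windows 0.841%). These were the 3 origins beside centromeres and 2 others. ARS811, between the metallothionein gene CUP1-2 and RSC30, lay 462 bp from a summit and 303 bp from the peak's edge. The nearest summit lay at 462 or 463 bp in every other list as well, so this nearness is not particular to wild type GAL-CSE4-FLAG. ARS811 holds no unique 50-mer, and reads with more than 1 position were not kept, so a peak on the origin itself could have been missed. ARS1322, inside a gene between RPS16A and NDE1, lay 811 bp from a summit. Without CEN peaks no origin was hit, which allows a share of up to 1.08% (Wilson interval).

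In cdc7-7 cells with GAL-CSE4-FLAG, 78 origins (22.2%, interval 18.1 to 26.8) were hit, beside 14.8% of genome windows, so the interval lies above the windows. A summit lay within 1 kb of 140 origins (39.8%, interval 34.8 to 45.0), beside 37.4% of windows, which the interval includes. These shares are not like for like, since 323 of the 352 origins lie between genes, whereas 36442 of the 50080 windows have their midpoint inside a gene. By place (classes described below), windows were hit at 42.4% in divergent, 31.5% in tandem and 8.49% in convergent gaps, and at 8.69% inside genes. Origins of the same places were hit at 21.1%, 32.5%, 9.57% and 28.6%. An excess at origins between genes over windows between genes is therefore not shown.

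**Figure D1:**
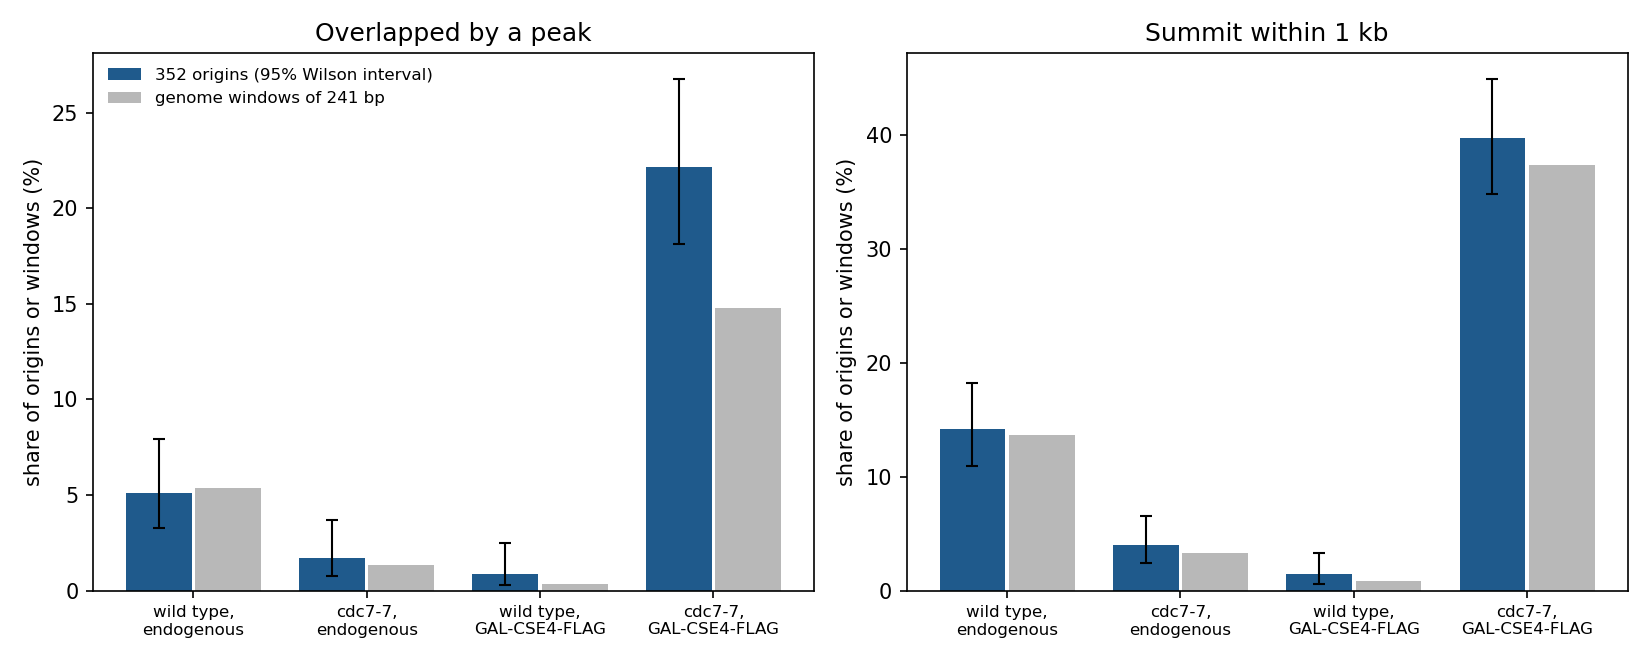
Share of the 352 origins (blue bars, 95% Wilson intervals) and of 241 bp genome windows (grey bars) that were overlapped by a peak (left) or had a summit within 1 kb (right), in percent, for the 4 lists. In cdc7-7 GAL-CSE4-FLAG 22.2% of origins and 14.8% of windows were overlapped, and for the other 3 lists the windows lie within the interval of the origins on both panels. Of the 50080 windows 36442 have their midpoint inside a gene, beside 21 of the origins.

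ARS208, ARS308 and ARS1208 were hit in all 4 lists, and all 3 lie at centromeres. ARS308 contains the 117 bp of CEN3, ARS1208 shares 1 bp with CEN12, and ARS208 ends 306 bp from CEN2. ARS308 lies between YCL001W-B and YCR001W, and the fold enrichment of its peak was 8.25 in wild type and 10.1 in cdc7-7 cells with endogenous Cse4, and 5.72 in wild type and 3.32 in cdc7-7 cells with GAL-CSE4-FLAG. The summit lay inside the origin in 3 lists and 12 bp outside it in cdc7-7 GAL-CSE4-FLAG. ARS208, between ECM15 and the trehalase gene NTH2, lay under the CEN2 peak, with fold enrichments of 6.93, 9.39, 6.16 and 2.55 in the same order. The highest of the 4 values was that of cdc7-7 endogenous Cse4 and the lowest that of cdc7-7 GAL-CSE4-FLAG at both origins.

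ARS1208, between the convergent genes DNM1 (a dynamin-related GTPase of mitochondrial division) and YLR001C, was hit by the CEN12 peak in 3 lists, with fold enrichments of 3.83 in wild type and 6.68 in cdc7-7 cells with endogenous Cse4 and 4.18 in wild type GAL-CSE4-FLAG. In cdc7-7 GAL-CSE4-FLAG a separate peak that did not overlap CEN12 hit it, at chrXII:151074-151587, with a fold enrichment of 1.69 and its summit inside the origin. That summit held 248 fragments over a background of 146. In this list a CEN9 peak of 2225 bp reached ARS920, between SGN1 and MPH1, which lies 1414 bp from CEN9. Its fold enrichment of 2.67 is that of a summit 1765 bp from the origin.

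ARS1407 was the 1 origin hit in 3 lists away from a centromere. It lies between PCL1 (a cyclin of the Pho85 kinase) and CAF40 (a subunit of the CCR4-NOT complex), which are transcribed in the same direction. The fold enrichment was 1.48 in wild type and 1.64 in cdc7-7 cells with endogenous Cse4 and 1.71 in cdc7-7 GAL-CSE4-FLAG, with 297, 103 and 234 fragments over backgrounds of 201, 62.6 and 137. The summit moved between the lists. It was inside the origin in wild type endogenous Cse4, 345 bp from it in cdc7-7 endogenous Cse4, and 318 bp from it in cdc7-7 GAL-CSE4-FLAG, where it lay 181 bp upstream of the CAF40 start codon.

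The other 9 origins hit in more than 1 list were hit in exactly 2. ARS404, ARS1, ARS519, ARS722, ARS1115, ARS1327 and ARS1419 were shared by wild type endogenous Cse4 and cdc7-7 GAL-CSE4-FLAG, ARS209 by both cdc7-7 lists, and ARS1230 by both endogenous lists. Of the 18 origins of wild type endogenous Cse4, 11 (61.1%) were hit in cdc7-7 GAL-CSE4-FLAG, and these are 14.1% of the 78. Of the 6 origins of cdc7-7 endogenous Cse4, 5 (83.3%) were hit in wild type endogenous Cse4 (27.8% of its 18) and 5 in cdc7-7 GAL-CSE4-FLAG (6.41% of its 78). The 3 origins of wild type GAL-CSE4-FLAG were in all other lists. They are the origins beside centromeres and are counted in each of these shares. The same shares over all peaks are not given beside them, so they describe which origins recur and are not read as a trait of origins.

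**Figure D2:**
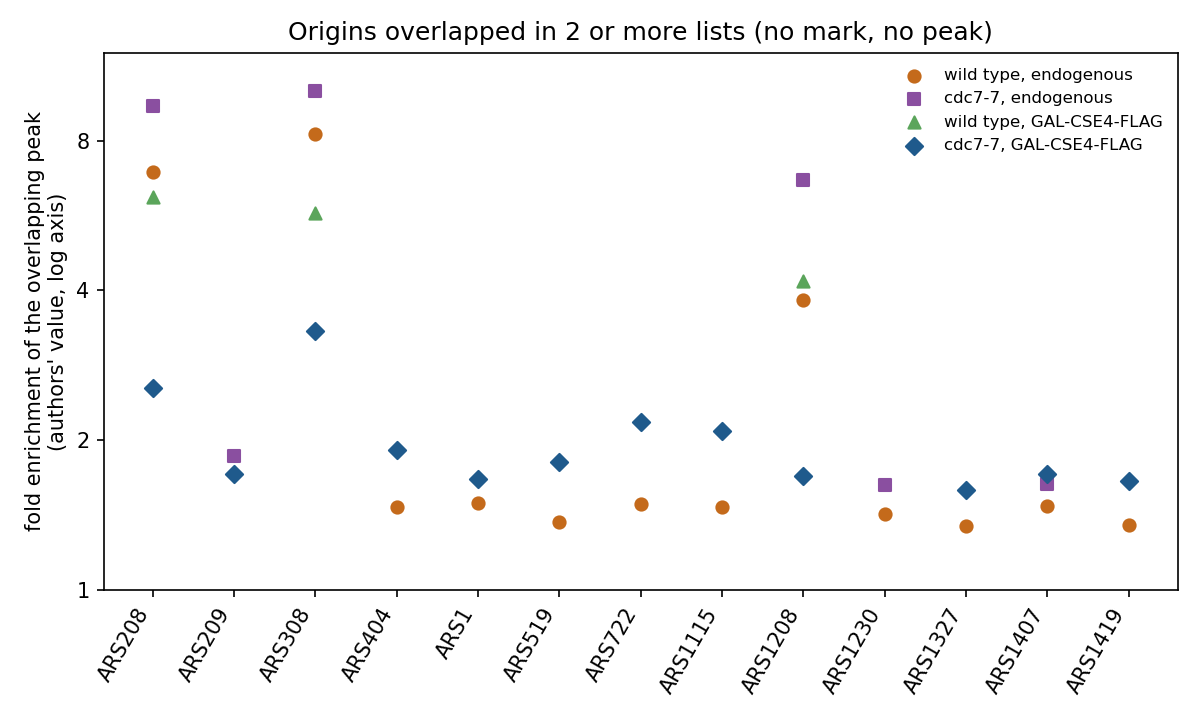
Authors' fold enrichment (vertical log axis) of the peak that overlaps each of the 13 origins hit in 2 or more lists, by list; an absent mark means no overlapping peak. Values above 2.17 are found only at the centromeric ARS208, ARS308 and ARS1208, and the other 10 origins range from 1.34 to 2.17.

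ARS1 was the best-studied origin among these. It lies between TRP1 (tryptophan synthesis) and GAL3 (the galactose sensor), which point the same way, and 12773 bp from CEN4, measured from its midpoint. Its fold enrichment was 1.49 in wild type endogenous Cse4 (341 fragments over 228) and 1.67 in cdc7-7 GAL-CSE4-FLAG (286 over 171). The summits lay 139 and 172 bp from the origin, on the TRP1 side, where the nearest start codon was 586 and 553 bp off.

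ARS404 lies between the 3′ ends of SSB1 (a ribosome-associated Hsp70) and HO (the mating-type switching endonuclease). Its fold enrichment was 1.47 in wild type endogenous Cse4 and 1.92 in cdc7-7 GAL-CSE4-FLAG, with summits 101 and 122 bp from the origin and each at least 1672 bp from a start codon. ARS722 was hit at 1.49 and 2.17 in the same lists, and both summits lay within 500 bp upstream of KSS1, the gene of a filamentation MAP kinase. ARS1115, between FPT1 and PRY2 (a secreted sterol-binding protein), was hit at 1.47 and 2.09, with both summits inside the origin and within 500 bp upstream of PRY2.

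ARS209 lies between FLR1 (a drug transporter) and the histone H4 gene HHF1. Different peaks hit it in the cdc7-7 lists, since the endogenous peak (fold enrichment 1.86) began at its last base and extended towards HHF1, while the GAL-CSE4-FLAG peak (1.71) covered all 86 bp with its summit 493 bp upstream of FLR1. ARS1230, between the 3′ ends of DUS4 and RPL31B (a ribosomal protein), was hit at 1.42 in wild type and 1.63 in cdc7-7 cells with endogenous Cse4, the summits 60 and 40 bp from it.

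The remaining origins hit in the endogenous lists were in wild type cells alone. They were ARS101, ARS316, ARS723, ARS1228, ARS1509 and ARS1521, with fold enrichments from 1.29 to 1.39. Over the 15 non-CEN peaks at origins in wild type endogenous Cse4 the median fold enrichment was 1.39, beside 1.38 for all 795 non-CEN peaks. The 3 in cdc7-7 endogenous Cse4 had a median of 1.64, beside 1.68 for its 167 non-CEN peaks. Peaks at origins were thus about as high as other peaks in both lists.

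In cdc7-7 GAL-CSE4-FLAG, 74 non-CEN peaks hit 75 origins, 1 of them both ARS601 and ARS602, which overlap. Their median fold enrichment was 1.58 (quartiles 1.44 and 1.70), beside 1.53 for all 2188 non-CEN peaks (quartiles 1.43 and 1.67), so the ranges largely coincide. The peaks at origins were wider (median 560 bp against 478 bp). A wider peak touches an origin more readily, so nothing is read from this difference.

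The highest non-CEN fold enrichment at an origin was 2.21, at ARS450 between the divergent genes PST2 and MRH1. That peak shared 4 bp with the origin and its summit lay 517 bp away, with 307 fragments over 139. ARS1008 (2.17) had its summit 308 bp from the origin and 80 bp upstream of MDV1, which encodes a mitochondrial fission factor. Both summits lay outside the origin.

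Among the next in order were ARS722 and ARS1115 (described above), ARS719, ARS609, ARS1625, ARS404 and ARS513. The peak at ARS719 (1.94) was 2695 bp wide, and its summit was 1651 bp from the origin. ARS609 (1.94), between the hexokinase gene HXK1 and YFR054C, had a summit 23 bp from the origin and 1205 bp from a start codon, and was the 1 origin hit within 20 kb of a chromosome end. ARS1625 (1.92) had a summit 117 bp away, 506 bp upstream of TKL1 (transketolase). ARS513 (1.85) had its summit inside the origin, 358 bp upstream of HOM3 (aspartate kinase).

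Whether these hits followed the neighbouring gene start was read from the summits. Of the 75 origins, 21 had the summit inside the origin, 36 had it outside but nearer to the origin than to a start codon, and 18 had it nearer to a start codon. The median distance was 96 bp to the origin and 358 bp to the nearest start codon. Since a peak had to touch the origin, both distances come in part from the way the peaks were chosen, because origins have their own distances to gene starts.

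Of the 74 peaks at origins, 37 (50.0%, interval 38.9 to 61.1) had a summit within 500 bp upstream of a start codon, beside 1449 of the 2114 other non-CEN peaks (68.5%, interval 66.5 to 70.5). The intervals do not overlap. The midpoints of all origins lay at a median of 677.5 bp from a start codon, and the summits of the other non-CEN peaks at 144.5 bp, so the choice of peaks that touch an origin sets part of this difference. The counts in the endogenous lists were 3 of 15 (20.0%, interval 7.05 to 45.2) in wild type endogenous Cse4 beside 31.0% of its other non-CEN peaks, and 0 of 3 in cdc7-7 endogenous Cse4.

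The 21 origins with the summit inside were ARS106, ARS304, ARS307, ARS432, ARS442, ARS513, ARS519, ARS601, ARS724, ARS729, ARS731, ARS1016, ARS1019, ARS1112, ARS1114, ARS1115, ARS1125, ARS1208, ARS1212.5, ARS1322 and ARS1518. In 10 of them the summit was also within 500 bp upstream of a start codon, so that origin and gene start could not be separated. ARS729, between SKN1 and the thiamine gene THI4, was the reverse, with its summit (fold enrichment 1.62) inside the origin and 2226 bp from a start codon. ARS1212.5 lies between APC9 and CDC45, which encodes a helicase component that joins MCM at origins, and was hit at 1.60 with its summit 130 bp downstream of the APC9 start codon.

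The 18 with the summit nearer to a start codon were ARS202, ARS216, ARS310, ARS433, ARS603.5, ARS719, ARS921, ARS1008, ARS1015, ARS1126, ARS1211, ARS1219, ARS1220, ARS1309, ARS1325, ARS1327, ARS1407 and ARS1622. ARS603.5 is an example, with the summit 438 bp from the origin and 34 bp upstream of SMC1, a cohesin subunit. The 36 between these were ARS1, ARS209, ARS211, ARS212, ARS215, ARS228, ARS230, ARS404, ARS409.5, ARS428, ARS450, ARS518, ARS602, ARS609, ARS718, ARS720, ARS722, ARS815, ARS901, ARS907, ARS1011, ARS1014, ARS1018, ARS1020, ARS1106, ARS1127, ARS1209, ARS1210, ARS1213, ARS1310, ARS1323, ARS1419, ARS1427, ARS1625, ARS1628 and ARS1635. Of these 36, 15 had the summit within 500 bp upstream of a start codon. With ARS208, ARS308 and ARS920 under CEN peaks, these are the 78 origins.

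**Figure D3:**
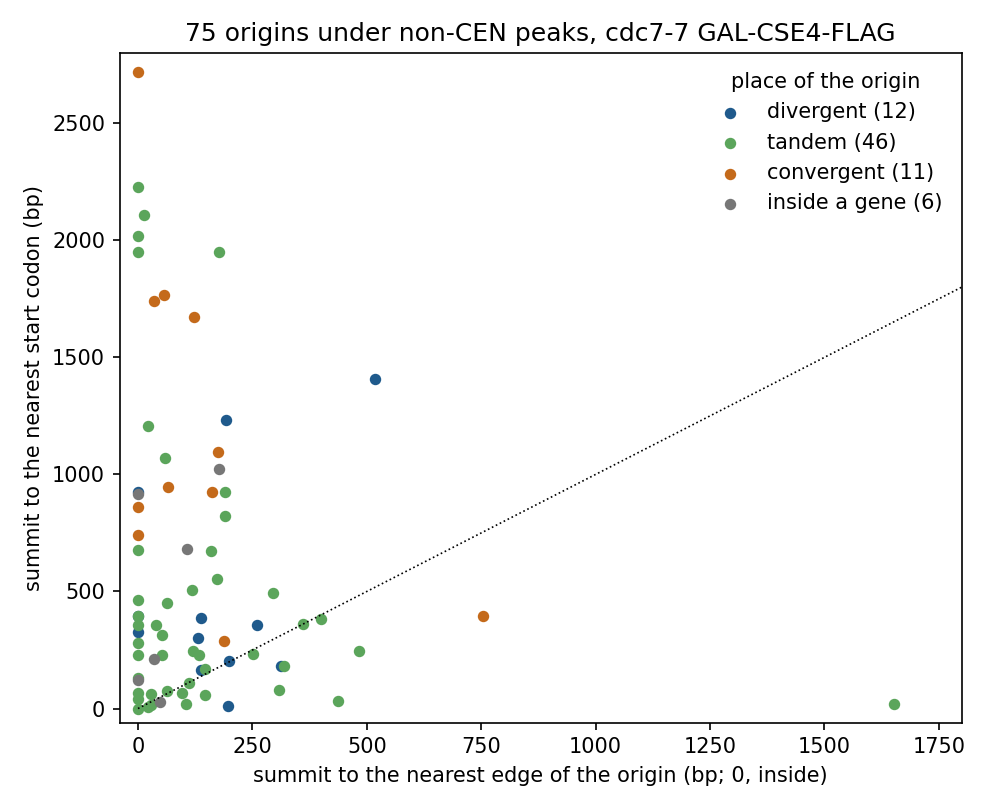
Distance of the summit from the nearest edge of the origin (horizontal, bp, 0 for a summit inside) and from the nearest start codon (vertical, bp) for the 75 origins under non-CEN peaks of cdc7-7 GAL-CSE4-FLAG, coloured by place; the dotted line marks equal distances. The 21 points at 0 lie inside an origin, 36 others lie above the line and 18 below it.

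The orientation of the flanking genes divided the origins. The midpoint lay between divergent genes (both starts facing the origin) for 57 origins, between tandem genes (1 start) for 151, between convergent genes (no start) for 115, inside a gene for 21 and beyond the last gene of a chromosome for 8. In cdc7-7 GAL-CSE4-FLAG 49 of the tandem origins (32.5%, interval 25.5 to 40.3) were hit, beside 31.5% of windows in tandem gaps. Of the convergent origins 11 (9.57%, interval 5.43 to 16.3) were hit, beside 8.49% of windows. In both classes the windows lie within the interval. None of the 8 at chromosome ends was hit, which allows a share of up to 32.4%.

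Divergent origins were hit at a lower share than their windows. Of these 57, 12 (21.1%, interval 12.5 to 33.3) were hit, beside 42.4% of windows in divergent gaps, and the intervals do not overlap. Divergent origins lay farther from gene starts than such windows, with a median of 399 bp against 201 bp from the midpoint to the nearest start codon. The part of this distance in the lower share was not tested. Inside genes, 6 of 21 origins (28.6%, interval 13.8 to 50.0) were hit, beside 8.69% of windows, and these were ARS212, ARS901, ARS1125, ARS1219, ARS1322 and ARS1323. The median length was 567 bp for all 21 origins inside genes and 439.5 bp for the 6 hit ones, against 241 bp for the windows.

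By distance of the origin's midpoint to the nearest start codon, origins between genes nearer than 250 bp were hit in 12 of 57 (21.1%, interval 12.5 to 33.3), beside 41.4% (40.1 to 42.7) of windows. From 250 to 500 bp the count was 19 of 63 (30.2%, interval 20.2 to 42.4), beside 38.2% of windows. From 500 to 1000 bp it was 27 of 88 (30.7%, interval 22.0 to 41.0), beside 24.3%. At 1000 bp or more it was 14 of 115 (12.2%, interval 7.39 to 19.4), beside 10.0%. Windows were hit most often next to gene starts, whereas the share of origins was no higher in the nearest class than in the next 2, and only the nearest class has intervals that do not overlap. Of the 57 origins of this class 42 lie in tandem gaps, so they are not the 57 divergent ones.

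**Figure D4:**
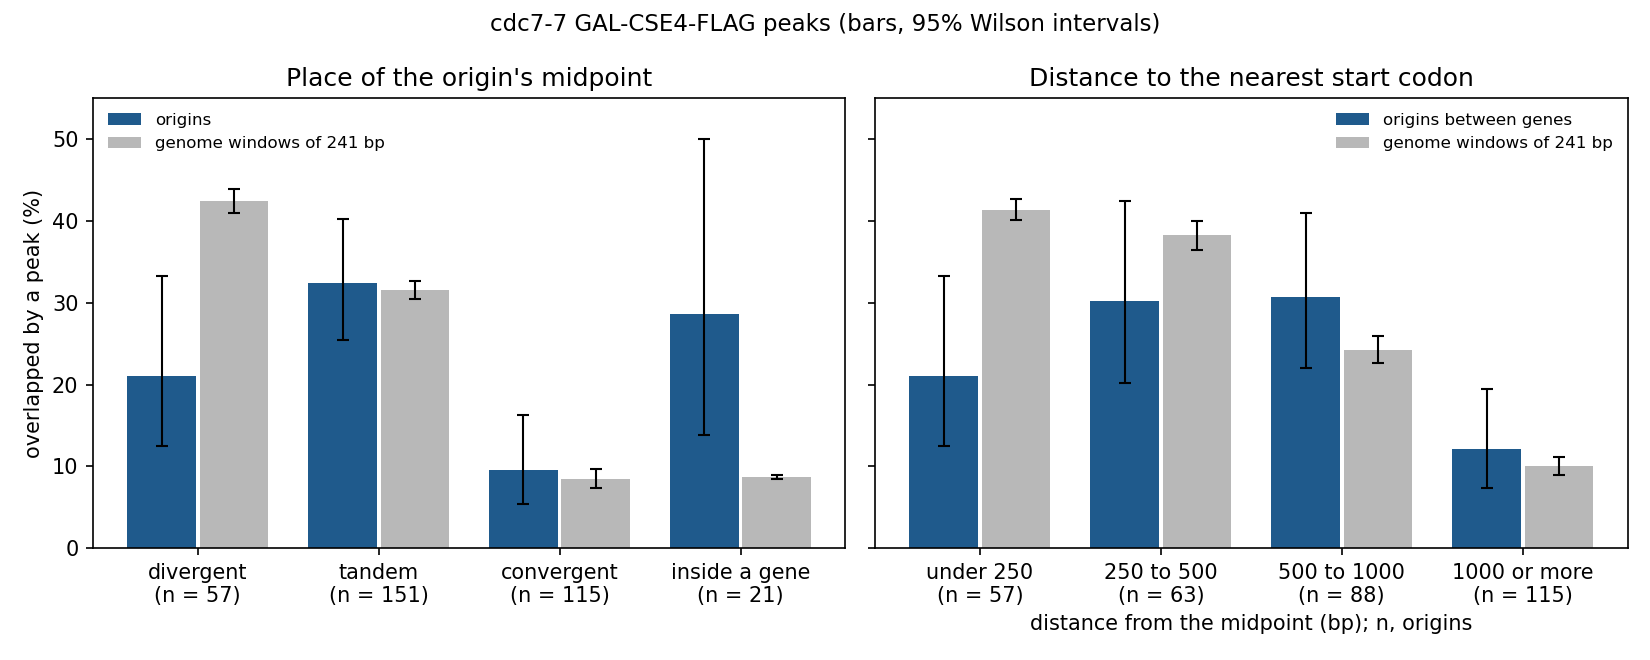
Share overlapped by a peak of cdc7-7 GAL-CSE4-FLAG, in percent, for origins (blue) and 241 bp genome windows (grey) by the place of the midpoint (left) and, between genes, by its distance to the nearest start codon in bp (right), with 95% Wilson intervals. Origins fall below windows in divergent gaps (21.1% against 42.4%) and within 250 bp of a start codon (21.1% against 41.4%), and lie above them inside genes (28.6% against 8.69%).

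The 11 convergent origins have no gene start facing them. The highest fold enrichments were at ARS404 (1.92), ARS215 between AAC3 and YBR085C-A (1.83), ARS1213 between the MAP kinase gene HOG1 and AVL9 (1.70), ARS1208 (1.69) and ARS1112 between TCD2 and GPX1 (1.64). The others were ARS409.5, ARS428, ARS1011, ARS1018, ARS1019 and ARS1327. The summit was inside the origin or nearer to it than to a start codon for 10 of the 11, the exception being ARS1327. Since start codons are distant in these gaps, at a median of 1233 bp from the convergent origins, this holds in part by position.

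The gaps between genes were then compared as wholes. A summit of cdc7-7 GAL-CSE4-FLAG lay in 29 of 56 divergent gaps with an origin (51.8%, interval 39.0 to 64.3) and in 41.3% of the 1471 without, in 64 of 150 tandem gaps with an origin (42.7%, interval 35.0 to 50.7) and in 27.2% of 2678 without, and in 11 of 112 convergent gaps with an origin (9.82%, interval 5.57 to 16.7) and in 2.28% of 1401 without. The intervals of gaps with and without an origin overlap for divergent gaps and not for tandem and convergent gaps. Gaps with an origin were longer, with medians of 1330 against 500 bp (divergent), 761.5 against 392 bp (tandem) and 403.5 against 219 bp (convergent).

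Within gaps over 1000 bp the shares lay closer. They were 73.7% with and 64.1% without an origin in divergent gaps, 59.6% and 49.5% in tandem gaps, and 33.3% and 27.1% in convergent gaps, all with overlapping intervals. Length was not matched within this class. Gaps with an origin had medians of 1955.5 against 1461 bp (divergent), 1785 against 1404 bp (tandem) and 2016 against 1339 bp (convergent). In gaps of up to 1000 bp the order was not uniform. In divergent gaps of 500 to 1000 bp, 1 of 15 with an origin (6.67%, interval 1.19 to 29.8) and 47.5% of 518 without (interval 43.2 to 51.8) held a summit, and these intervals do not overlap. In tandem gaps of that length the shares were 51.1% and 38.5%, and under 500 bp they were 13.0% and 19.7%, each pair with overlapping intervals. Among the convergent gaps under 500 bp, 2 of 69 with an origin (2.90%) and 8 of 1223 without (0.654%) held one.

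Some origins were not hit although their gap held a summit. Of the 29 divergent origins in such gaps 19 were not hit, of the 65 tandem origins 26, and of the 11 convergent origins 3. No share of windows in such gaps stands beside these counts, so they are not read as a trait of origins. The 118 summits in gaps with an origin lay at a median of 278.5 bp from the origin and 340.5 bp from the nearest start codon. Of these, 16 were inside the origin, 54 were nearer to a start codon and 75 were within 500 bp of a start codon. In divergent gaps 23 of 38 summits were nearer to a start codon, in tandem gaps 31 of 69, and in convergent gaps 0 of 11.

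Around the midpoints of all origins, non-CEN summits of cdc7-7 GAL-CSE4-FLAG were denser than the genome mean within 500 bp, at 0.290 per kb per origin (102 summits) against 0.181, and sparser from 500 to 1000 bp, at 0.119 (42 summits). From 1000 to 2000 bp the density was 0.176. In wild type endogenous Cse4 the density within 500 bp was 0.0682 (24 summits), beside a genome mean of 0.0659. The part of the origins' place between genes in these densities was not tested.

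**Figure D5:**
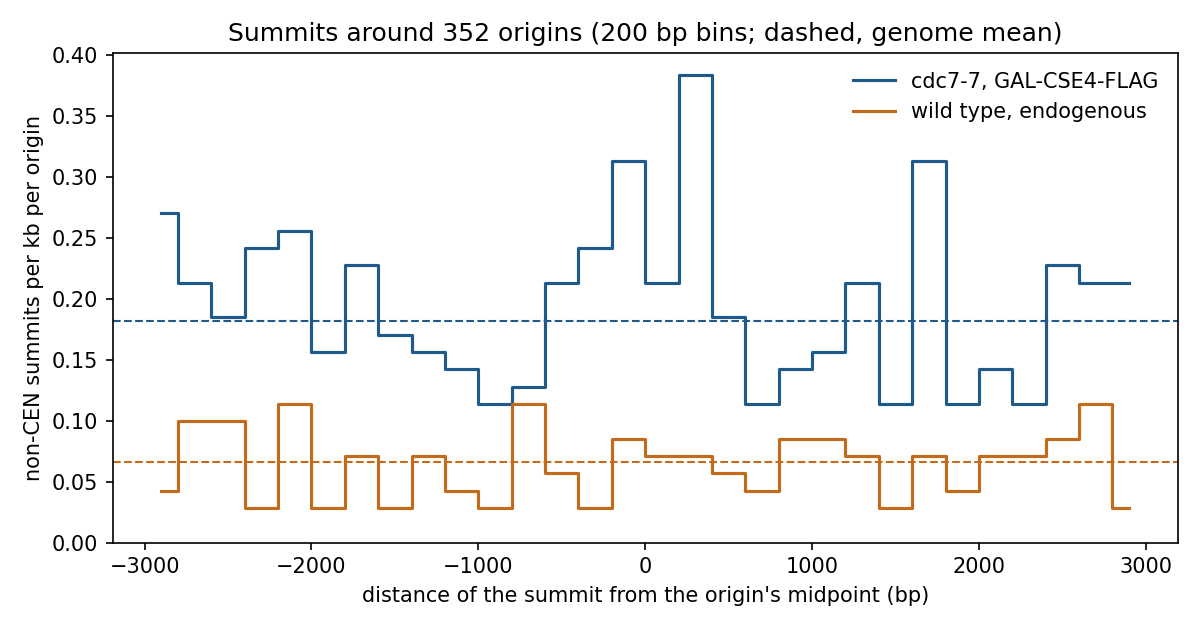
Non-CEN summits per kb per origin (vertical) in 200 bp bins of distance from the origin's midpoint in bp (horizontal, negative towards lower coordinates), for cdc7-7 GAL-CSE4-FLAG (blue) and wild type endogenous Cse4 (orange), with genome means as dashed lines. The blue line is above its mean of 0.181 in the bins centred up to 500 bp from the midpoint and below it in the bins centred 700 to 900 bp away on either side, and the orange line varies around its mean of 0.0659.

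The share of hit origins also differed along the chromosome. Within 20 kb of a centromere 18 of 34 origins (52.9%, interval 36.7 to 68.5) were hit in cdc7-7 GAL-CSE4-FLAG, beside 26.4% of windows (interval 24.8 to 28.1). Within 20 kb of a chromosome end 1 of 40 (2.50%, interval 0.443 to 12.9) was hit, beside 4.59% of windows, and 24 of these 40 lie in sequence where at least 50% of 50-mers are unique. Elsewhere the count was 59 of 278 (21.2%, interval 16.8 to 26.4), beside 14.7% of windows. The interval near centromeres overlaps neither that of the windows there nor that of origins elsewhere. The places differ, however, since 1907 of the 2664 windows near centromeres have their midpoint inside a gene, beside 4 of the 34 origins. Elsewhere these were 33229 of 44760 windows and 15 of 278 origins.

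The 18 origins near centromeres were ARS1, ARS208, ARS209, ARS307, ARS308, ARS719, ARS720, ARS920, ARS921, ARS1014, ARS1015, ARS1016, ARS1114, ARS1208, ARS1209, ARS1309, ARS1310 and ARS1622. Without CEN peaks 15 of the 34 (44.1%, interval 28.9 to 60.5) were hit, beside 22.4% of windows. Orientation moves with this, since 20 of the 34 lie in tandem gaps. With CEN peaks counted, 15 of these 20 were hit (75.0%, interval 53.1 to 88.8), beside 56.8% of the tandem windows near centromeres, which the interval includes. ARS208, ARS308 and ARS920 are among these 15 and were hit by CEN peaks only. The tandem share without CEN peaks is not given. In the other classes there, 2 of 5 divergent origins (windows 57.1%), 1 of 5 convergent (19.7%) and 0 of 4 inside genes (17.1%) were hit. Away from centromeres and chromosome ends 33 of 119 tandem origins (27.7%, interval 20.5 to 36.4) were hit, beside 32.4% of tandem windows. With CEN peaks counted, the intervals of tandem origins in these 2 zones do not overlap. In wild type endogenous Cse4 5 of the 34 (14.7%, interval 6.45 to 30.1) were hit, 3 of them by a CEN peak, beside 12.1% of windows.

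Several well-studied origins were hit in no list. ARS305 and ARS306 on chromosome III had a summit of cdc7-7 GAL-CSE4-FLAG at 386 and 319 bp but no overlapping peak. ARS301, ARS302, ARS303, ARS320 and ARS317, 5 of the origins at the silent mating-type loci, ARS603 and ARS607 lay 2745 bp or more from any summit of that list. ARS318, beside HMRA1 at a silent locus, was not hit either and lay 839 bp from a summit of that list. ARS307, between LDB16 and PGS1, was hit in cdc7-7 GAL-CSE4-FLAG alone, at 1.37, with its summit inside the origin and 68 bp upstream of PGS1. The rDNA origins ARS1200-1 and ARS1200-2 were not hit either. They hold no unique 50-mer, and reads with more than 1 position were not kept, so peaks on them could have been missed. In all, 20 of the 352 origins lie in sequence with under 50% unique 50-mers, and none of these was hit.

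Features of the origins themselves were compared between hit and other origins. In cdc7-7 GAL-CSE4-FLAG 34 of 124 origins with an exact consensus match (27.4%, interval 20.3 to 35.9) and 44 of 228 without (19.3%, interval 14.7 to 24.9) were hit. Of 53 origins annotated as putative 7 (13.2%, interval 6.55 to 24.8) were hit, and of the other 299, 71 (23.7%, interval 19.3 to 28.9). Both pairs of intervals overlap. The median AT content was 68.1% (quartiles 65.1 and 70.9) in the 78 hit origins and 70.7% (quartiles 67.8 and 74.4) in the 274 others, so the ranges overlap. By place the order was not uniform. The medians of hit and other origins were 67.8% and 70.3% in divergent gaps and 67.9% and 71.0% in tandem gaps. They were 71.9% and 71.6% in convergent gaps, and 67.2% and 63.9% inside genes. By length, the shares rose from 17.1% of the 117 shortest (51 to 175 bp) to 24.0% and 25.4% of the 2 longer classes, while windows of each class's median length were hit at 12.2%, 14.8% and 18.8%.

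The genes of origin recognition and licensing were examined as well, by a peak in the 500 bp upstream of the start codon. In cdc7-7 GAL-CSE4-FLAG 3 of 8 had such a peak, namely ORC2 (fold enrichment 1.52), ORC3 (1.54) and CDC6 (1.56), beside 47% of the 6002 protein-coding genes. In wild type endogenous Cse4 1 of 8 had one, ORC2 at 1.25, beside 9.58% of genes. ORC1, ORC4, ORC5, ORC6 and TAH11 had none in any list, and no gene of the list had one in the other lists.

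The overlap rule of 1 bp set some memberships narrowly. Just inside it were ARS209 in cdc7-7 endogenous Cse4 (1 bp), ARS1228 in wild type endogenous Cse4 (6 bp), and ARS450 (4 bp) and ARS720 (6 bp) in cdc7-7 GAL-CSE4-FLAG. Just outside were ARS409.5 in wild type endogenous Cse4 (5 bp from a peak), ARS418 in cdc7-7 endogenous Cse4 (35 bp), and ARS1426 and ARS430 in cdc7-7 GAL-CSE4-FLAG (both 2 bp). When the summit had to lie inside the origin, 6, 1, 1 and 21 origins were left in wild type endogenous Cse4, cdc7-7 endogenous Cse4, wild type GAL-CSE4-FLAG and cdc7-7 GAL-CSE4-FLAG.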

How the data were processed

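Cse4 ChIP-seq was deposited as 1 narrowPeak list per strain, called in the ChIP library against its own input library, with 1 library each per group. The authors aligned reads to S288C (sacCer3, R64) with Bowtie 1.0.0, kept those with a single reportable position, used SAMtools against duplicates and MACS as the peak caller, as labels and paper give it. The deposited values are the authors' fold enrichment over local background (a ratio with a pseudocount of 1 on both sides), the −log10 p-value and −log10 q-value at the summit, and an integer score, which was not used. The number of fragments in each library is not given in the lists, so its depth was read only through the background solved from fold and p.

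Peaks were converted to 1-based coordinates. Origins, centromeres and 6002 protein-coding genes were taken from the RefSeq R64 annotation. The place of an origin is that of its midpoint, and gene starts are start codons, since transcript starts were not used here. Pileup and background at the summit were solved from (x + 1)/(λ + 1) and the Poisson p, for 97.8% to 99.9% of the peaks of a list. Genome windows of 241 bp were laid end to end. Neighbouring windows share peaks, so their intervals are too narrow. The counting and the solution were tested on simulated data.

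Members and lists were chosen with earlier results of these data known. Named are the origins hit in each list, with full values for the 10 highest fold enrichments at non-CEN peaks of cdc7-7 GAL-CSE4-FLAG, the 5 highest in each endogenous list and of the convergent origins, those at CEN peaks or in at least 3 lists, and a set of well-studied origins; others were named after their values were seen. Values for the second of the 10 in order are not reported here. ARS501 of that set has no record under that name and was not analysed here. Alternatives were stricter peak thresholds, other summit and promoter distances, and leaving out CEN peaks. Python 3.11.15 with numpy 2.4.6, pandas 2.3.3, scipy 1.17.1 and matplotlib 3.10.9 was used.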

Additional observations from a re-analysis of the deposited data

How the results depend on the processing

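No share was tested, since each group has 1 library, so no replicate could be left out. No paired analysis was possible because each list comes from 1 ChIP library and no result comes from a test. Of the hit counts 18, 6, 3 and 78 (wild type and cdc7-7 endogenous Cse4, wild type and cdc7-7 GAL-CSE4-FLAG), a fold enrichment of at least 2 left 3, 3, 3 and 8, a summit inside the origin 6, 1, 1 and 21, the 46 peaks of highest −log10 q 3, 4, 3 and 6, and leaving out CEN peaks 15, 3, 0 and 75. A −log10 q of at least 5 left 11 origins in wild type endogenous Cse4. With a summit within 2 kb in place of 1 kb the counts 50, 14, 5 and 140 became 81, 24, 9 and 211. At a −log10 q of at least 5 the first pair became 21 and 9, and without CEN peaks the third became 2. With at least 50% of the origin covered, 8 in place of 13 origins were hit in more than 1 list. No share of windows under the altered rules stands beside these counts, so they are not read as a trait of origins.

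In cdc7-7 GAL-CSE4-FLAG, a summit inside the origin lowered the shares of divergent, tandem, convergent and genic origins to 5.26%, 8.61%, 2.61% and 9.52%. A −log10 q of at least 5 lowered the tandem share to 24.5% and the genic share from 28.6% to 14.3% (3 of 21). No shares of windows at these settings stand beside them. At a −log10 q of at least 5, summits lay in 31.5% of divergent, 21.1% of tandem and 1.50% of convergent gaps without an origin, and in 33.3% of tandem gaps with one. In gaps over 500 bp they lay in 52.2%, 42.1% and 13.5% of those without an origin, and in 55.8% of tandem and 20.9% of convergent gaps with one. Midpoints in place of summits gave 46.4% and 29.2% for divergent and tandem gaps without an origin. The share of peaks at origins with a summit upstream of a start codon was 28.4% within 250 bp and 63.5% within 1000 bp, and in wild type endogenous Cse4 6.67% and 46.7%. The share of hit origins near centromeres was 68.8% (windows 31.5%) within 10 kb, 46.5% (22.7%) within 30 kb and 44.1% (21.9%) within 20 kb at a −log10 q of at least 5, all chosen after seeing the data, as was the class near centromeres with and without CEN peaks. The cause of these shifts was not tested. The median fold enrichment at origins in wild type endogenous Cse4 was 1.39, and 1.47 at a −log10 q of at least 5. The latter equals the upper quartile of the main setting. In cdc7-7 GAL-CSE4-FLAG these medians were 1.58 and 1.62. Without the pseudocount the medians in these lists were 1.39 and 1.59. The lists differ in depth, and the part of depth in the hit counts was not tested. An origin not hit in a list was not detected there and is not shown to lack Cse4.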
